A study of Mus musculus with 6 samples.

Results

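Messenger RNA levels of 10 circadian clock and clock output genes were measured in the intestine of mice labelled as Myc-deleted and of their floxed controls. The genes were taken by symbol (Nfil3, Dbp, Per1, Per2, Per3, Cry1, Nr1d1, Nr1d2, Arntl and Clock). All 10 were found among the 47643 genes of the count table, and all 10 passed the filter on low counts that left 12720 genes. All mice were C57BL/6 males aged 7 to 8 weeks, and both groups received tamoxifen by intraperitoneal injection and a 60% high-fat diet for 2 weeks. One genotype is labelled MycΔIE, ERT2 (Myc-deleted, 3 libraries), and the other Mycfl/fl (control, 3 libraries). ERT2 is the usual name of a tamoxifen-responsive receptor domain, and the labels do not spell out IE. The labels name neither the promoter that drives the recombinase nor whether the controls carry one, so an effect of the recombinase and an effect of Myc loss cannot be told apart. They also give no time of day and no fasting state at collection. Whether the hour of collection differed between the groups was not tested, and for genes of the clock that hour sets the level.

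The clock of mammalian cells is a feedback loop of transcription. CLOCK and BMAL1 (the product of Arntl) activate genes through E-boxes, among them the Per and Cry genes, whose proteins inhibit them, and Nr1d1 and Nr1d2, whose products REV-ERBα and REV-ERBβ repress Arntl and Nfil3 through RORE elements. Downstream, DBP activates and NFIL3 represses genes that carry a D-box, and in mouse liver their transcripts peak at opposite times of day. In the mouse small intestine, epithelial NFIL3 is known for linking the microbiota and the clock to lipid uptake. MYC, with its partner MAX, binds the same E-box letters as CLOCK and BMAL1.

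The RefSeq promoter table (GRCm38.p6, 250 bases before to 50 after each start site) held 9 of the 10 genes, without Per2. Both strands were searched for the E-box CACGTG, the D-box TTATGTAA or TTACGTAA and the RORE core TAGGTCA, and no window of these 9 genes held more than 1 of the 3 motifs. The E-box was found in Per1 and Cry1, and in 7.15% of all 32851 windows (8.09% of all 27025 genes). Per3 held 2 copies of the D-box, which was in 1.06% of all windows (1.23% of genes). The RORE core was found in Nfil3 and in Arntl, and in 2.61% of windows (2.97% of genes). The sequences below are shown because they hold the letters through which the loop and NFIL3 are known to act on these genes, and capitals mark the matches. Per1 (chr11:69098699-69098948, plus strand), Per3 (chr4:151044666-151044915, minus strand) and Cry1 (chr10:85185055-85185304, minus strand) are given as the 250 bases before the start site. For Per1 this is the first of 2 RefSeq windows, and the second held no E-box. The Per1 stretch shown lies inside the Per1 gene as GENCODE annotates it. Nfil3 (chr13:52981035-52981059, minus strand, match on the opposite strand, 12 bases before the RefSeq start but inside the Nfil3 gene as GENCODE annotates it) and Arntl (chr7:113207533-113207557, plus strand, match 30 bases past the start) are given as the match with its flanks. These matches are letters in a window and were not tested as binding sites.
Per1: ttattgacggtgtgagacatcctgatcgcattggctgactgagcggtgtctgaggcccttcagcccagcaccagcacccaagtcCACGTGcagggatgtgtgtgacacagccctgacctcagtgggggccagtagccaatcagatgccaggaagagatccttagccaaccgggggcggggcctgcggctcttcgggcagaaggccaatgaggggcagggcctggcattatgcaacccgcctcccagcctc
Per3: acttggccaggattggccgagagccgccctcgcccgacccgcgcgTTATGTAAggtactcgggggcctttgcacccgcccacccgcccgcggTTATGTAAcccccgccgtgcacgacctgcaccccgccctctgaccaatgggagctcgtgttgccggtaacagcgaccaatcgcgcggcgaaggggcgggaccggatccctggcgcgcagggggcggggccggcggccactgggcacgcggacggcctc
Cry1: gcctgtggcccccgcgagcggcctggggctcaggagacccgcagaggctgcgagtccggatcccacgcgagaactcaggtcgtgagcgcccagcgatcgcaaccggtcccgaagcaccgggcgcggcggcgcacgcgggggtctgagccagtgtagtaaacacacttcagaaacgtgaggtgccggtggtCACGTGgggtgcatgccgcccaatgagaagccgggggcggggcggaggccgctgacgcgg
Nfil3: ctcggaacTGACCTActaacacaca
Arntl: gcagaaagTAGGTCAgggacggagg

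Levels are counts scaled by library size (CPM, TMM-scaled). The libraries held 10636658 to 11157715 expected counts in the Myc-deleted mice and 9956938 to 11328693 in the controls. Myc itself stood at 3.29, 4.36 and 5.81 CPM in Myc-deleted libraries 1 to 3 and at 5.86, 6.05 and 6.03 CPM in control libraries 1 to 3 (log2 fold change -0.41 ± 0.22 SE, edgeR adjusted p = 0.318), so its level does not check the label of Myc-deleted library 3. The extraction protocol names liver while the other labels name intestine. Of 8 hepatocyte markers, 5 were tested and summed to 208 to 260 CPM in the Myc-deleted mice and 181 to 241 CPM in the controls, most of it Cps1, a urea cycle gene that intestinal epithelium also expresses (0.31 on the log2 scale, edgeR adjusted p = 0.128). Alb, the albumin gene, was lower at 0.0929 to 0.915 CPM in the Myc-deleted mice and 1.89 to 3.20 CPM in the controls (edgeR adjusted p = 0.0326), and so was Tat, at 4.83 to 16.0 CPM in the Myc-deleted mice and 24.2 to 40.7 CPM in the controls (edgeR adjusted p = 0.0276). Serpina1c (-0.97 on the log2 scale) and Ttr (0.30) did not pass, and Ahsg, Fgb and Cyp2e1 had at most 4 counts in a library. The 6 epithelial markers summed to 19636 to 21415 CPM in the Myc-deleted mice and 19042 to 21488 CPM in the controls. Control library 2 held more smooth muscle RNA than the others: 6 smooth muscle markers summed to 91.8 CPM there, the highest of the controls, whose lowest was 17.1 CPM, against 15.9 to 20.7 CPM in the Myc-deleted libraries. In such bulk tissue, fewer cells of a type and less RNA per cell cannot be told apart.

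Of the 10 genes, Nfil3 fell and Per1 rose in the Myc-deleted mice, and the other 8 did not pass the test. The test was the edgeR quasi-likelihood test with Benjamini-Hochberg adjustment over all 12720 genes at a threshold of 0.05, which called 7.95% of all tested genes, 4.22% higher and 3.73% lower (537 and 474 genes). With upper-quartile scaling the split turned, to 449 genes higher and 591 lower. The share of the 10 genes called, 1 in each direction, was read against that background. Fold changes were positive for 6 and negative for 4 of the 10, with a median of 0.27 on the log2 scale, beside -0.00212 over all tested genes. Groups did not overlap for 3 of the 10, Nfil3 below the controls and Per1 and Nr1d1 above them, beside 27.8% without overlap over the whole set of tested genes (14.0% with the Myc-deleted mice above and 13.7% below). Under the other settings named in the text, the share of genes called was 7.93% with RLE scaling, 8.18% with upper-quartile scaling, 8.61% with DESeq2, 7.89% with limma voom, 5.64% with no filter, 10.8% with a minimum count of 50, 7.70% with a replicate block and 12.4% at a threshold of 0.1. It was 7.31%, 4.91% and 5.69% without Myc-deleted library 1, 2 or 3, and 4.95%, 3.57% and 5.28% without control library 1, 2 or 3.

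**Figure D1:**
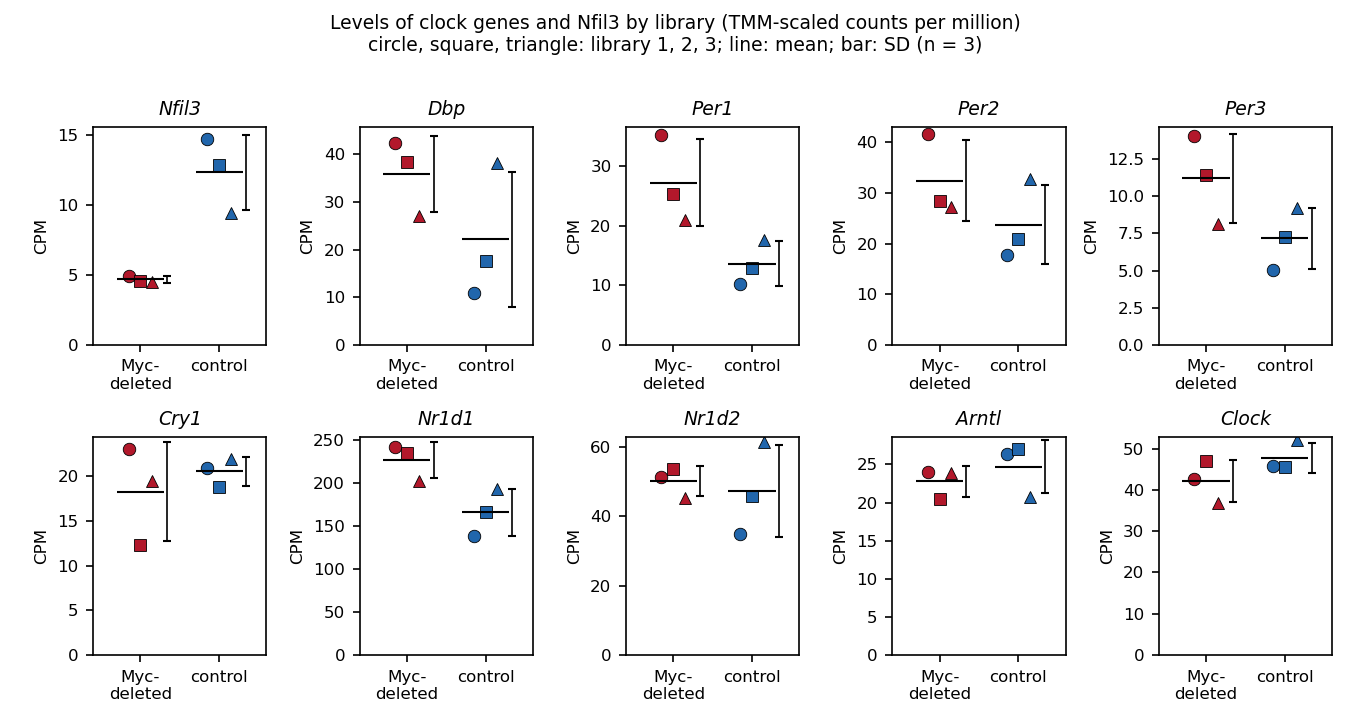
TMM-scaled CPM (vertical axes, from 0) of the 10 genes in each library, Myc-deleted left of control, with the group mean (line) and SD (bar, n = 3 each). Nfil3 lay at 4.52 to 4.94 CPM in the Myc-deleted libraries and at 9.40 to 14.7 CPM in the controls, and Dbp spread from 10.8 to 38.1 CPM among the controls.

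Nfil3 encodes the repressor of D-box genes (ENSMUSG00000056749.7, chromosome 13, 52967209 to 52981073, GRCm38). It had 54, 49 and 49 counts in Myc-deleted libraries 1 to 3 and 148, 149 and 92 counts in control libraries 1 to 3. Its level was 4.94, 4.55 and 4.52 CPM in the Myc-deleted mice and 14.7, 12.9 and 9.40 CPM in the controls. The 3 Myc-deleted libraries were nearly alike, and each lay below every control, the lowest of which was library 3. The means were 4.67 ± 0.234 CPM in the Myc-deleted mice and 12.3 ± 2.70 CPM in the controls (SD, n = 3 each), 2.64-fold lower with deletion (log2 fold change -1.40 ± 0.19 SE, 95% interval -1.82 to -0.98, edgeR adjusted p = 0.00236). The fall kept its call with every library left out in turn, with log2 fold changes of -1.56 to -1.26 and edgeR adjusted p of 0.00279 to 0.0154, and without control library 3 it was the largest.

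Nfil3 is also used by innate lymphoid and NK cells, so their markers were read beside it. Il7r, the interleukin 7 receptor gene, was at 1.19, 1.95 and 1.38 CPM in the Myc-deleted mice and 1.29, 0.778 and 2.35 CPM in the controls. The groups overlapped, and it did not pass (log2 fold change 0.05 ± 0.43 SE, edgeR adjusted p = 0.959). Of the 7 markers listed, 5 had too few counts to be tested. Among them, the NK receptor gene Ncr1 had 0, 1 and 1 counts in the Myc-deleted libraries and 1, 0 and 1 in the controls. Il22, also among the 5, had 0, 0 and 0 counts against 8, 5 and 1 in the controls. Gata3 had 5, 1 and 2 counts against 6, 7 and 1 in the controls. Klrb1c had 3, 2 and 6 against 4, 13 and 4, and Eomes had 5, 2 and 1 against 0, 6 and 2. The part of these cells in the fall of Nfil3 was not tested.

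Genes upstream and downstream of Nfil3 in the intestine were read from the same fit, and they were not tested as a set. Interleukin 22 and STAT3 are known in mouse to raise epithelial Nfil3 by repressing Nr1d1. Of 11 genes of that arm, 10 were tested, 2 fell and none rose (median log2 fold change 0.03). Over all tested genes, 3.73% were called lower and 4.22% higher. The transcript of Il22, which lymphoid cells and not the epithelium produce, was counted 0 times in the 3 Myc-deleted libraries and 14 times in the controls (8, 5 and 1). These counts were under the filter, and without a filter the difference did not pass (edgeR adjusted p = 0.0612). Stat3 had 203, 185 and 176 CPM in the Myc-deleted mice and 174, 168 and 199 CPM in the controls, which overlapped (log2 fold change 0.06 ± 0.09 SE, edgeR adjusted p = 0.765). The fallers were the antimicrobial lectin genes Reg3b (-2.03 ± 0.34 SE, edgeR adjusted p = 0.00693) and Reg3g (-1.70 ± 0.38 SE, edgeR adjusted p = 0.0239), both known to be raised through STAT3. Reg3g lost its call without Myc-deleted library 1 (edgeR adjusted p = 0.0638), without control library 2 (0.0968) and without control library 3 (0.0618), which left 1 gene of the arm called, and 3 were called without Myc-deleted library 3.

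Downstream, 5 lipid genes known to depend on epithelial Nfil3 in mouse were followed. Cidec, a lipid droplet protein gene, was at 70.5, 69.9 and 68.2 CPM in the Myc-deleted mice and 53.4, 42.0 and 51.7 CPM in the controls. It was the 1 gene of the 3 tested that passed, and it rose (log2 fold change 0.51 ± 0.10 SE, edgeR adjusted p = 0.0126), opposite in sign to Nfil3. The share called higher over all tested genes was 4.22%. Scd1, a fatty acid desaturase gene, overlapped between the groups with 66.3, 120 and 89.2 CPM in the Myc-deleted mice and 105, 112 and 80.4 CPM in the controls (-0.11 ± 0.19 SE, edgeR adjusted p = 0.795). Fabp4 did not pass (-0.19 ± 0.39 SE, edgeR adjusted p = 0.824). Cd36, a fatty acid transporter gene, had 3 to 11 counts in the Myc-deleted libraries and 4 to 16 in the controls and was not tested, and Cidea had at most 1 count in a library.

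Per1 encodes a PERIOD protein of the inhibitory limb, and it is the member of the family most readily induced by outside signals (ENSMUSG00000020893.17, chromosome 11, 69095217 to 69109960). Its level was 35.3, 25.4 and 21.0 CPM in Myc-deleted libraries 1 to 3 and 10.2, 12.9 and 17.7 CPM in control libraries 1 to 3. Every Myc-deleted library lay above every control, with the narrowest gap between Myc-deleted library 3 and control library 3. Means were 27.2 ± 7.32 CPM in the Myc-deleted mice and 13.6 ± 3.77 CPM in the controls (SD, n = 3 each), a 2.01-fold rise (log2 fold change 1.0 ± 0.22 SE, 95% interval 0.51 to 1.50, edgeR adjusted p = 0.0231). The call rested on several libraries: the edgeR adjusted p was 0.0531 without Myc-deleted library 1, 0.0769 without control library 1 and 0.108 without control library 2, with log2 fold changes of 0.77, 0.84 and 0.96, so that none of the 10 genes was higher in those runs.

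Per2 and Per3 had positive fold changes too, and neither passed. Per2 stood at 41.7, 28.4 and 27.2 CPM in the Myc-deleted mice and 17.8, 20.8 and 32.7 CPM in the controls. Control library 3 lay above 2 of the Myc-deleted libraries, and the log2 fold change was 0.45 ± 0.23 SE (95% interval -0.05 to 0.96, edgeR adjusted p = 0.282). Per3, the gene with both D-boxes, stood at 14.1, 11.4 and 8.12 CPM in the Myc-deleted mice and 5.07, 7.26 and 9.19 CPM in the controls. Its groups overlapped only through control library 3, which was above Myc-deleted library 3, and the log2 fold change was 0.64 ± 0.25 SE (95% interval 0.09 to 1.20, edgeR adjusted p = 0.157). Cry1, the cryptochrome that joins the PER proteins as a repressor and whose promoter also holds the E-box, was at 23.1, 12.3 and 19.5 CPM in the Myc-deleted mice and 20.9, 18.8 and 22.0 CPM in the controls. Myc-deleted library 2 was the low value there, and without it the log2 fold change was 0.04 against -0.17 ± 0.19 SE with all libraries (95% interval -0.60 to 0.27, edgeR adjusted p = 0.673).

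Nr1d1, the gene of REV-ERBα, was the most abundant of the 10 (ENSMUSG00000020889.11, chromosome 11, 98767932 to 98775333). Its level was 242, 235 and 202 CPM in the Myc-deleted mice and 138, 166 and 193 CPM in the controls. The groups did not overlap, and the log2 fold change of 0.45 ± 0.12 SE (95% interval 0.18 to 0.72) narrowly missed the threshold with an edgeR adjusted p of 0.0509. It passed with DESeq2 (DESeq2 adjusted p = 0.00673), with limma voom (limma adjusted p = 0.0475), and in edgeR without Myc-deleted library 3 (adjusted p = 0.0462) or control library 3 (0.0281). It did not pass in edgeR without Myc-deleted library 1 (adjusted p = 0.116) or 2 (0.152), or without control library 1 (0.140) or 2 (0.172). Nor did Nr1d1 pass in edgeR with upper-quartile scaling (adjusted p = 0.0695) or with a replicate block (0.0744). Nr1d1 overlaps the thyroid hormone receptor gene Thra on the opposite strand by 263 exonic bases, and whether the counting used strand is not given in the sources used here. Thra had 89.6, 90.0 and 77.5 CPM in the Myc-deleted mice and 77.3, 80.6 and 61.9 CPM in the controls (0.23 ± 0.11 SE, edgeR adjusted p = 0.271).

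Its close relative Nr1d2, the gene of REV-ERBβ, was at 51.4, 53.8 and 45.3 CPM in the Myc-deleted mice and 34.9, 45.8 and 61.5 CPM in the controls. The controls spanned the whole range of the Myc-deleted mice, and the log2 fold change of 0.08 ± 0.17 SE (95% interval -0.30 to 0.47, edgeR adjusted p = 0.829) was -0.10 without control library 1.

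Dbp, the D-box activator that opposes NFIL3, gave the widest spread among the controls. It was at 42.5, 38.4 and 27.0 CPM in Myc-deleted libraries 1 to 3 and at 10.8, 17.5 and 38.1 CPM in control libraries 1 to 3 (ENSMUSG00000059824.11, chromosome 7, 45705088 to 45710203). Control library 3 thus lay among the Myc-deleted libraries while the other 2 controls lay below all of them, and the highest control was 3.52 times the lowest. The log2 fold change was 0.70 ± 0.36 SE (95% interval -0.10 to 1.51, edgeR adjusted p = 0.289). Without control library 3 it was 1.33 and passed (edgeR adjusted p = 0.0181), and without control library 1 it was 0.38 (edgeR adjusted p = 0.545). Dbp shares 539 exonic bases with Sphk2 on the opposite strand, and Sphk2 had 78.0 to 83.4 CPM in the Myc-deleted mice and 85.1 to 92.2 CPM in the controls (-0.11 ± 0.07 SE, edgeR adjusted p = 0.449).

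The genes of the loop's activators had small fold changes, and neither passed. Arntl was at 24.1, 20.4 and 23.9 CPM in the Myc-deleted mice and 26.3, 27.1 and 20.7 CPM in the controls, with overlapping groups. Its log2 fold change was -0.12 ± 0.12 SE, and the 95% interval of -0.39 to 0.16 (edgeR adjusted p = 0.634) bounds a change in either direction. Clock was at 42.6, 47.0 and 36.9 CPM in the Myc-deleted mice and 45.9, 45.6 and 52.0 CPM in the controls (-0.18 ± 0.10 SE, 95% interval -0.41 to 0.05, edgeR adjusted p = 0.354).

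**Figure D2:**
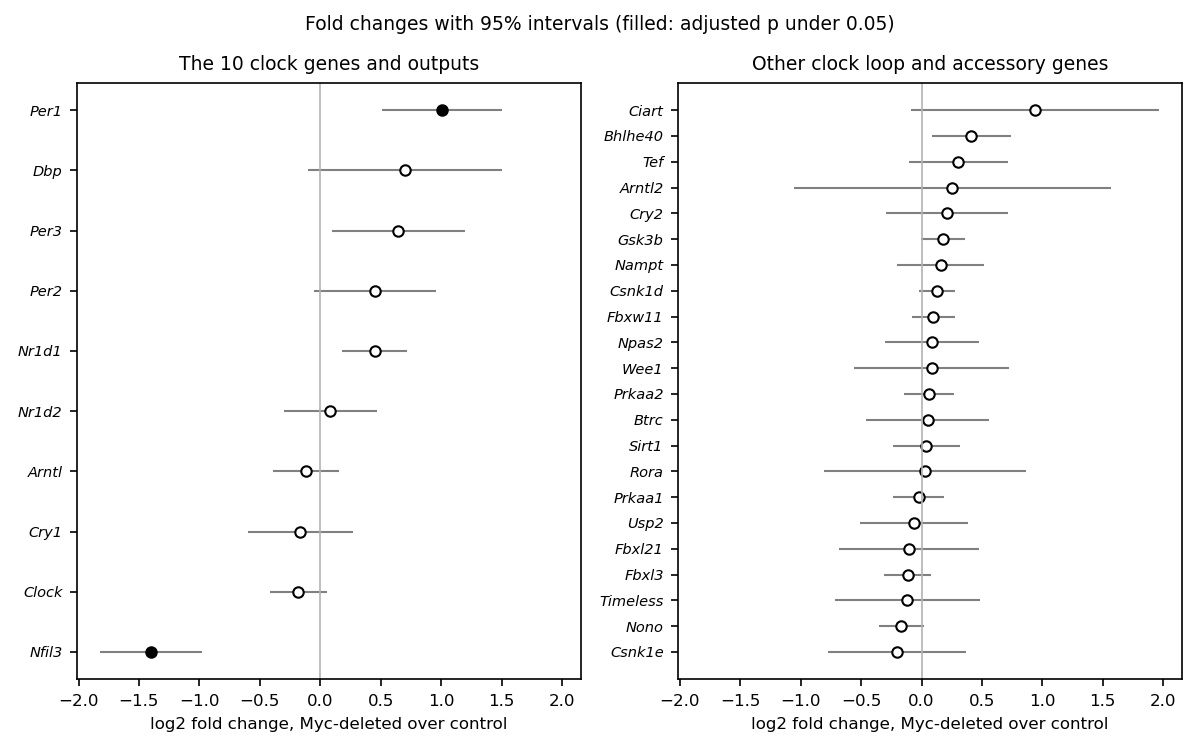
Log2 fold changes of Myc-deleted over control (horizontal axes) with 95% intervals for the 10 genes (left) and for the other tested clock genes reported here (right), filled where the edgeR adjusted p was under 0.05. Nfil3 at -1.40 and Per1 at 1.0 are the filled points, and no gene on the right is filled.

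Per length of merged exons, Nr1d1 was far above the rest in both groups, at 73.6 ± 6.82 CPM per kb in the Myc-deleted mice and 53.9 ± 8.86 CPM per kb in the controls (SD, n = 3 each). Next in the Myc-deleted mice came Dbp (12.0 ± 2.67 CPM per kb), Nr1d2 (9.27 ± 0.808), Per2 (5.54 ± 1.37), Cry1 (5.47 ± 1.65) and Per1 (4.84 ± 1.30). The means of Dbp and Nr1d2, and likewise of Per2, Cry1 and Per1, lay within their spread between libraries. Within each Myc-deleted library, though, Dbp lay above Nr1d2 and Per2 above Per1. Clock (3.07 ± 0.369 CPM per kb) and Arntl (3.03 ± 0.273) followed, and the lowest levels were those of Nfil3 (2.31 ± 0.116) and Per3 (1.17 ± 0.311). In the controls the order was Nr1d2 (8.76 ± 2.47 CPM per kb), Dbp (7.40 ± 4.75), Cry1 (6.15 ± 0.488), Nfil3 (6.09 ± 1.33), Per2 (4.06 ± 1.34), Clock (3.48 ± 0.264), Arntl (3.28 ± 0.460), Per1 (2.41 ± 0.669) and Per3 (0.747 ± 0.215). Neighbours in this order from Nr1d2 down to Per1 lay within their spread, so they could not be ordered. By mean, Nfil3 thus lay next to the lowest of the 10 in the Myc-deleted mice and among the group below Nr1d1 in the controls. Per1 lay, by mean, in the middle of the order in the Myc-deleted mice and next to the lowest in the controls.

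Several of the clock genes varied widely between mice of 1 genotype, and some shared an order of libraries. How the variation divides within and between the genotypes was not tested. Among the controls, library 1 was lowest and library 3 highest for 6 of the 10 genes (Dbp, Per1, Per2, Per3, Nr1d1 and Nr1d2), an order that 17.1% of all tested genes had, and Nfil3 had the reverse order. Among the Myc-deleted mice, library 1 was highest and library 3 lowest for 6 of the 10 (Nfil3, Dbp, Per1, Per2, Per3 and Nr1d1), as for 20.9% of all tested genes. For Nfil3, Myc-deleted libraries 2 and 3 had 49 counts each, so their order came from the scaling alone. The range over the 3 controls was 1.80 on the log2 scale for Dbp, and 5 of the 10 genes (Dbp, Per1, Per2, Per3 and Nr1d2) exceeded 0.67, the 90th percentile over the 11221 genes whose log2 CPM averaged 1 or more and whose median range was 0.25. Among the Myc-deleted mice 3 of the 10 (Per1, Per3 and Cry1) exceeded the 90th percentile there, 0.69. Nfil3 ranged over 0.12 in the Myc-deleted mice and 0.64 in the controls.

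**Figure D3:**
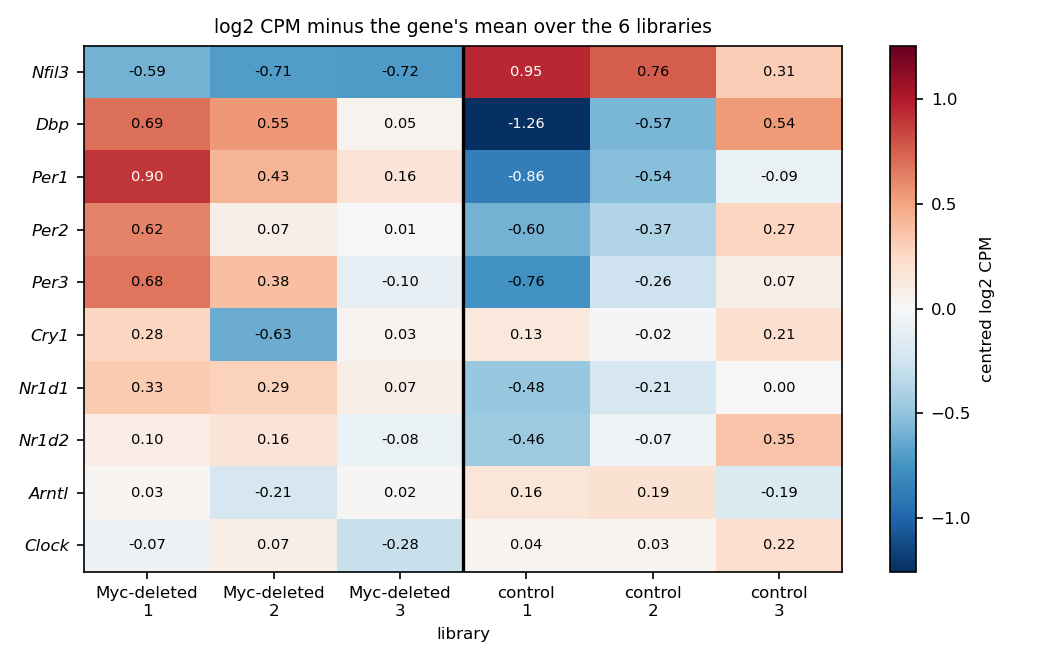
Log2 CPM of each gene in each library minus its mean over the 6 libraries (colour and printed value), Myc-deleted libraries left of the line and controls right of it. Control library 1 is at -1.26 for Dbp and 0.95 for Nfil3, and control library 3 is at 0.54 for Dbp and 0.31 for Nfil3.

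Ratios within a library do not depend on the scaling between libraries. The log2 ratio of Dbp to Nfil3, the activator over the repressor of the D-box, was 3.06, 3.02 and 2.53 in the Myc-deleted libraries and -0.43, 0.44 and 2.00 in the controls. The groups did not overlap, yet control library 3 stood much nearer to the Myc-deleted mice than to control library 1. Means were 2.87 ± 0.29 in the Myc-deleted mice and 0.67 ± 1.23 in the controls (SD, n = 3 each), a difference of 2.20. The log2 ratio of Per1 to Cry1 was 0.61, 1.04 and 0.11 in the Myc-deleted libraries and -1.01, -0.54 and -0.31 in the controls, again without overlap. For Dbp to Arntl it was 0.81, 0.90 and 0.18 in the Myc-deleted libraries and -1.27, -0.62 and 0.87 in the controls, and for Nr1d1 to Arntl 3.32, 3.51 and 3.07 in the Myc-deleted libraries and 2.38, 2.61 and 3.21 in the controls. Both of these ratios overlapped between the groups, through control library 3. The ratios without overlap each hold Nfil3 or Per1, the genes called, so they are not separate results. No test was made of the ratios.

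**Figure D4:**
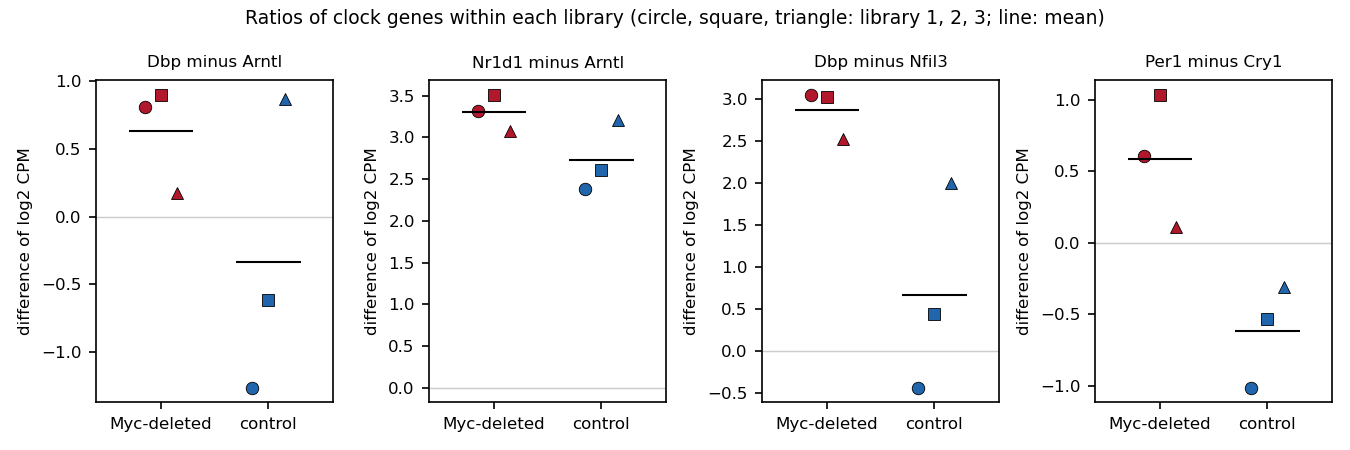
Differences of log2 CPM between pairs of clock genes within each library (vertical axes, counts not divided by length), Myc-deleted left of control, with the group mean as a line. Dbp minus Nfil3 averaged 2.87 in the Myc-deleted libraries and 0.67 in the controls, and control library 3 at 2.00 was the nearest control to the Myc-deleted libraries.

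Beyond the 10 genes, 26 other components of the loop and its accessory factors were read from the same fit. Of these, 23 were tested, none passed in either direction in edgeR, in DESeq2 or in limma voom (15 positive and 8 negative fold changes, median 0.06 on the log2 scale). At an unadjusted edgeR p under 0.05 there was 1 higher and 1 lower. The higher one was Bhlhe40, which encodes a repressor at E-boxes, with 102, 86.3 and 76.7 CPM in the Myc-deleted mice and 80.1, 54.0 and 64.9 CPM in the controls (0.41 ± 0.15 SE, edgeR adjusted p = 0.126). Tef, a D-box activator of the family of Dbp, had 89.6, 86.1 and 67.8 CPM in the Myc-deleted mice and 47.2, 66.4 and 83.5 CPM in the controls, and Ciart, a repressor of CLOCK and BMAL1, had 4.30, 3.25 and 2.21 CPM and 0.596, 1.64 and 2.86 CPM. Both showed the lowest value in control library 1 and, among the controls, the highest in library 3, as Dbp did, and neither passed (edgeR adjusted p = 0.368 for Tef and 0.271 for Ciart). These 2 genes were picked after their values were seen. Hlf, the remaining D-box activator of that family, had 2 to 7 counts in a library and was not tested.

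Intestinal transport and digestion genes that cycle over the day in rodents changed in both directions. Of 10 such genes, 3 rose and 1 fell (median log2 fold change 0.21), beside 4.22% higher and 3.73% lower over all tested genes. The glucose transporter gene Slc2a2 rose most, with 20.6, 21.3 and 21.1 CPM in the Myc-deleted mice and 0.795, 2.42 and 2.04 CPM in the controls (3.56 ± 0.24 SE, edgeR adjusted p = 0.000129). The exporter gene Abcc2 rose with 241, 273 and 214 CPM in the Myc-deleted mice against 140, 170 and 171 CPM in the controls (0.60 ± 0.11 SE, edgeR adjusted p = 0.00986), and Abcg2, another exporter gene, fell (-0.50 ± 0.08 SE, edgeR adjusted p = 0.00503). The peptide transporter gene Slc15a1 was at 759, 748 and 574 CPM in the Myc-deleted mice and 509, 481 and 552 CPM in the controls (0.43 ± 0.11 SE, edgeR adjusted p = 0.0479). It lost its call without Myc-deleted library 1 (edgeR adjusted p = 0.111) or library 2 (0.167), and without control library 1 (0.129), 2 (0.198) or 3 (0.0734), and with upper-quartile scaling (0.0648), which left 3 genes of the list called. The sodium-glucose transporter gene Slc5a1 overlapped, with 2219, 2102 and 1950 CPM in the Myc-deleted mice and 1654, 1935 and 2288 CPM in the controls, and had the same order of control libraries as Dbp.

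The profiles most like that of Nfil3 over the 6 libraries, by the root-mean-square distance of centred log2 CPM among those same abundant genes, were those of Tst, a mitochondrial sulfurtransferase gene (distance 0.19), Bche, which encodes butyrylcholinesterase (0.20), and Deptor, an inhibitor of mTOR (0.20). Tst was at 11.0, 10.2 and 7.93 CPM in the Myc-deleted mice and 30.3, 33.9 and 23.5 CPM in the controls, and in all 3 genes, as in Nfil3, control library 3 was the lowest control. Nearest to Per1 were Gadd45g (0.18), Angptl4 (0.19) and Tsc22d3 (0.19). Angptl4, the gene of an inhibitor of lipoprotein lipase, was at 154, 141 and 104 CPM in the Myc-deleted mice and 54.2, 82.2 and 77.8 CPM in the controls. The 3 genes nearest to each were chosen by this distance, so their fold changes and their order of libraries are not separate results.

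**Figure D5:**
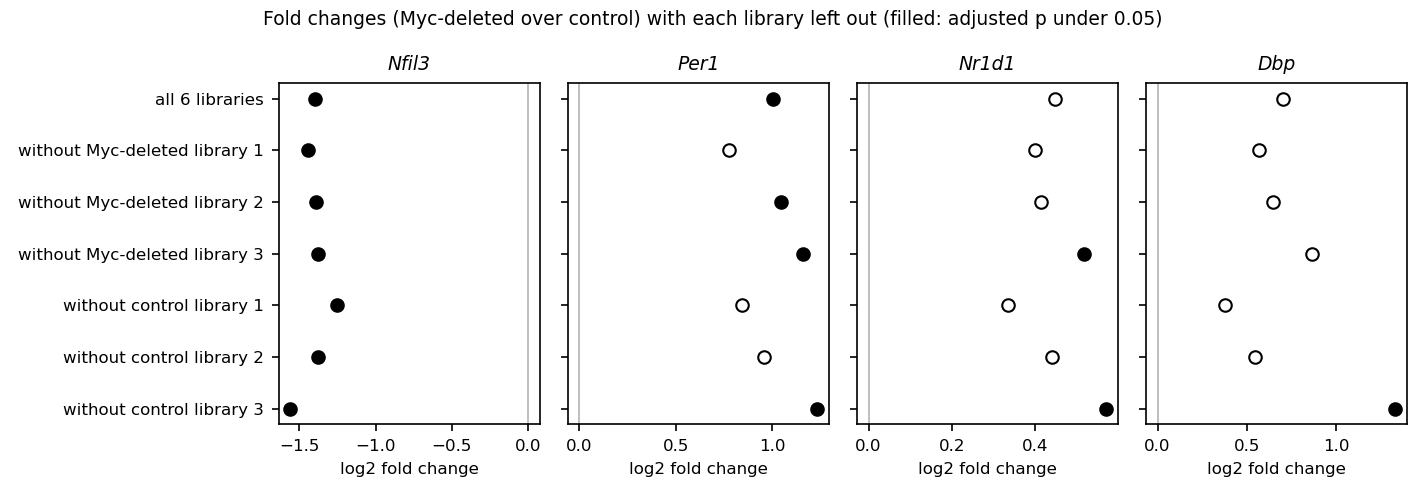
Log2 fold changes of Myc-deleted over control (horizontal axes) for Nfil3, Per1, Nr1d1 and Dbp with all 6 libraries and with each library left out, filled where the edgeR adjusted p was under 0.05. Nfil3 is filled throughout between -1.56 and -1.26, while Dbp is filled only without control library 3, at 1.33.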

How the data were processed

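The 6 libraries were made with a stranded mRNA kit, per the labels. The authors deposited unscaled expected counts, 1 value per gene and library. The submitters' processing notes name cutadapt, STAR, Picard, RSEM and mm10. Versions, the annotation release and the strand setting: not given in the sources used here. Nothing in the labels says which samples share a litter or day, so p-values measure the spread between these libraries. Symbols came from GENCODE M21 (GRCm38), which matched 99.1% of identifiers.

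Rounded expected counts went into edgeR 4.0.16 under R 4.3.3 (filterByExpr with a minimum count of 10 and total of 15, TMM scaling, the quasi-likelihood F-test, Benjamini-Hochberg adjustment over every tested gene), a procedure tested on simulated data. SE is the size of the log2 fold change divided by √F, and CPM is TMM-scaled. Log2 CPM used a prior count of 2. Depth limits precision: 3 counts are 0.265 to 0.301 CPM, counting error only. The alternatives tried were upper-quartile and RLE scaling, limma 3.58.1 voom, DESeq2 1.42.0, 2 filters, a replicate block, each library left out and a threshold of 0.1.

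The members and lists were chosen with earlier results of these data known. Named were the 10 members, called members of each list (at most 4, otherwise the 2 with the lowest p), the 3 profiles nearest to each called member, Myc and markers. Other list members named (Il22, Stat3, Scd1, Fabp4, Cd36, Cidea, Tef, Ciart, Hlf, Slc5a1, Fkbp5 and genes overlapping a member) were picked after their values were seen. A gene that the rule names is not reported here.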

Additional observations from a re-analysis of the deposited data

How the results depend on the processing

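Nfil3 stayed lower past the threshold in all runs (log2 fold change -1.44 to -1.37 over 8 other settings and -1.56 to -1.26 with a library left out). Per1 stayed higher past the threshold in all 8 other settings (0.96 to 1.01), and was at 0.77 to 1.23 with a library left out. Nr1d1 passed with DESeq2 (0.45), limma voom (0.46), no filter (0.45), a minimum count of 50 (0.44) and a threshold of 0.1 (0.45), which made 2 members higher instead of 1; with a library left out it was 0.33 to 0.57. Members higher numbered 0 to 3 and lower 1 to 1 with a library left out. Those runs gave 0.38 to 1.33 for Dbp, 0.23 to 0.75 for Per2, 0.45 to 0.85 for Per3, -0.37 to 0.04 for Cry1 (0.0445 without Myc-deleted replicate 2), -0.10 to 0.31 for Nr1d2 (-0.0951 without control replicate 1), -0.23 to -0.05 for Arntl and -0.27 to -0.10 for Clock. Over all genes they gave 229 to 503 higher and 233 to 447 lower, and a threshold of 0.1 gave 824 and 748. They called 0 to 0 clock loop, 1 to 1 Nfil3-dependent, 3 to 5 transport, 1 to 3 Stat3-arm, 0 to 1 immediate-early and 3 to 4 glucocorticoid-induced genes. The cause of these moves was not tested. The replicate numbers did not pair the libraries (same-number correlations of deviations 0.01, 0.08 and 0.01). With the replicate block, Nfil3 was at -1.38 (edgeR adjusted p = 0.00305) and Per1 at 0.99 (0.0434). Slc15a1 was at an edgeR adjusted p of 0.0746 (3 transport genes called). The block called 1 clock loop gene (Bhlhe40, edgeR adjusted p = 0.0400) instead of 0 and 1 immediate-early gene instead of 0, as did no filter (1) and a threshold of 0.1 (1) for the latter list. A prior count of 0.5 moved no ratio beyond its spread.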

Other observations

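Per1 is also known as an immediate-early gene and as a gene induced by glucocorticoids, and lists of both kinds were read from the same fit. Of 12 immediate-early genes none passed in edgeR, DESeq2 or limma voom at an adjusted p under 0.05, 2 were higher at an unadjusted edgeR p under 0.05, and 9 had a positive fold change (median 0.13 on the log2 scale). Fos, which encodes a subunit of AP-1, was at 261, 128 and 103 CPM in the Myc-deleted mice and 101, 54.5 and 84.2 CPM in the controls, without overlap (1.04 ± 0.32 SE, edgeR adjusted p = 0.0863). Fos passed without Myc-deleted library 3 (edgeR adjusted p = 0.0376) and was at 0.54 without Myc-deleted library 1. Btg2, an antiproliferative gene, did not pass (0.32 ± 0.14 SE, edgeR adjusted p = 0.199).

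Of 8 glucocorticoid-induced genes, 7 were tested, 2 rose and 2 fell, beside 4.22% higher and 3.73% lower over all tested genes. Tsc22d3, which encodes the glucocorticoid-induced leucine zipper, rose, with 93.2, 84.4 and 80.2 CPM in the Myc-deleted mice and 31.7, 41.5 and 46.3 CPM in the controls (1.11 ± 0.13 SE, edgeR adjusted p = 0.00138). The kinase gene Sgk1 rose (0.77 ± 0.18 SE, edgeR adjusted p = 0.0273), but had an edgeR adjusted p of 0.0547 and 0.0788 without Myc-deleted library 1 or 2 and 0.0831, 0.130 and 0.0537 without control library 1, 2 or 3. The metallothionein genes Mt1 (-0.94 ± 0.14 SE, edgeR adjusted p = 0.00383) and Mt2 (-1.60 ± 0.29 SE, edgeR adjusted p = 0.00973), which bind zinc, fell. Fkbp5, another gene of this list, overlapped, with 202, 117 and 113 CPM in the Myc-deleted mice and 141, 173 and 164 CPM in the controls.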
